A study of Danio rerio with 4 samples.

Results

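The inducible heat shock genes of the zebrafish brain and their regulators are described here by 10 named genes, hsp70.3, hsp70l, dnajb1b, hspb1, hsp90aa1.1, hsp90aa1.2, hspa8, serpinh1b, hsf1 and hsf2. Probe sets were taken where the platform annotation of the array gave 1 of these symbols, and 13 of 15502 probe sets did so. Of these, 11 carried a single symbol and 2 carried several, so that their signal cannot be assigned to 1 gene. Every member was on the array. A probe set of its own was found for 9 of the 10 genes, and hsp70l was read only by a probe set shared with hsp70.1 and hsp70.3. The genes were selected on measured values, namely their signals on these same 4 arrays and the ratio of cold to normal signal, so the values below are a description, and no test on them stands as support.

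Cold-acclimated brains came from adult zebrafish held at 10°C for 10 days, and normal brains from adult zebrafish kept at 28°C, with no transgene or mutation named for either group. Both groups held males and females in equal numbers, and the cold group was cooled stepwise before the 10 days. Strain and the number of brains per pool are not stated in the sources used here. Each 1-colour Affymetrix Zebrafish Genome Array was hybridized with labelled RNA of pooled brains, and 4 arrays were analysed, cold 1, cold 2, normal 1 and normal 2, which are named by their group and by the number in their label. Each number makes a set: set 1 is cold 1 over normal 1 and set 2 is cold 2 over normal 2. Since each condition has 1 array in a set, ratios within sets are given without a test. Per the study the RNA came from separate acclimation experiments, and it names more of them than there are sets here. Which of them each number stands for, or that a number joins cold and normal fish of the same experiment, is not stated in the sources used here.

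Heat shock proteins are chaperones, which bind unfolded or partly folded proteins and help them to fold, to be held in solution or to be degraded. HSP70 proteins work in an ATP-driven cycle that J-domain proteins start, small heat shock proteins hold unfolded clients, and HSP90 proteins finish the folding of kinases, hormone receptors and other clients. Some members of each family are made in every cell, while others are switched on by heat and other protein-damaging stress through heat shock factors, which form trimers and bind heat shock elements in the promoters of their targets.

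The 4 arrays were alike in scale, with overlapping groups. The median signal lay between 99.0 and 101 on the cold arrays and between 96.3 and 102 on the normal arrays. The ratio of the 3′ to the 5′ probe sets of GAPDH, a sign of RNA integrity that grows with degradation, was 0.968 on cold 1 and 1.35 on cold 2, against 1.16 on normal 1 and 1.25 on normal 2. Probe sets for fluorescent reporter genes, which have no target in these fish, served as a background, and the highest of the 3 on each array read 129 on cold 1, 165 on cold 2, 151 on normal 1 and 134 on normal 2. The lowest read 39.4 on cold 1, 46.1 on cold 2, 41.7 on normal 1 and 43.5 on normal 2. Readings called above or below the reporter controls are set against the highest. That mark exceeded the median signal of every array, so it is a strict one. All 8 measured neuron markers passed the filter on low signal, a mean log2 signal of 6.22 (a signal of about 74.5) or more, which kept 9301 probe sets. The summed signal of the 8 measured red blood cell markers was 20865 on cold 1 and 12505 on cold 2, against 14305 on normal 1 and 22229 on normal 2, and that of 7 muscle markers was 2752 on cold 1 and 1255 on cold 2, against 1138 on normal 1 and 1171 on normal 2. The blood markers were thus higher in cold in set 1 and lower in set 2, and the part of blood, muscle RNA or RNA integrity in the values below was not tested. The sets went against each other over the whole array, with 69.6% of all kept probe sets higher in cold in 1 set and lower in the other. The labels were kept as given. If those of either set were exchanged, its ratios would change sign and both sets would run the same way for these probe sets, and the labelled differences would change with them. Whether any label was exchanged was not tested. In these pools, fewer cells of a type and less RNA per cell cannot be told apart.

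The stress-inducible HSP70 genes spread furthest of all the members. hsp70.3 encodes an inducible cytosolic HSP70, and its own probe set had signals of 113 on cold 1 and 569.7 on cold 2, against 2068 on normal 1 and 262 on normal 2. hsp70l is an inducible HSP70 gene whose promoter is widely used to switch on transgenes by heat in zebrafish, and the probe set it shares with hsp70.1 and hsp70.3 read 146 on cold 1 and 797 on cold 2, against 2846 on normal 1 and 291 on normal 2. On both probe sets normal 1 was by far the highest and cold 1 the lowest, and the groups overlapped because cold 2 lay above normal 2.

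Cold over normal, the signal of hsp70.3 was therefore 18.3-fold lower in set 1 and 2.17-fold higher in set 2. The shared HSP70 probe set gave 19.5-fold lower in set 1 and 2.74-fold higher in set 2. On cold 1 hsp70.3 lay below the highest reporter control, and with every signal held at or above that control of its array its set 1 ratio was 16-fold. The name of this probe set ends in _x_at, which marks probes that can bind related transcripts, so the similar profiles of both probe sets cannot be taken as separate readings of separate genes.

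dnajb1b, whose J-domain protein delivers clients to HSP70 and starts its ATP cycle, followed the same order. Its signal was 96.7 on cold 1 and 193 on cold 2, against 609 on normal 1 and 125 on normal 2. The ratio was 6.30-fold lower in set 1, or 4.71-fold with the reporter control as a floor, and 1.54-fold higher in set 2. Only cold 2 and normal 1 exceeded the reporter controls of their arrays, so the low readings on cold 1 and normal 2 are close to background.

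The small heat shock protein gene hspb1 encodes a chaperone that holds unfolded proteins and protects the actin cytoskeleton. It had signals of 152 on cold 1 and 284 on cold 2, against 697 on normal 1 and 209 on normal 2. All 4 readings were above the reporter controls. In set 1 it was 4.58-fold lower in cold, in set 2 it was 1.36-fold higher, and normal 1 again stood above the other 3 arrays.

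**Figure D1:**
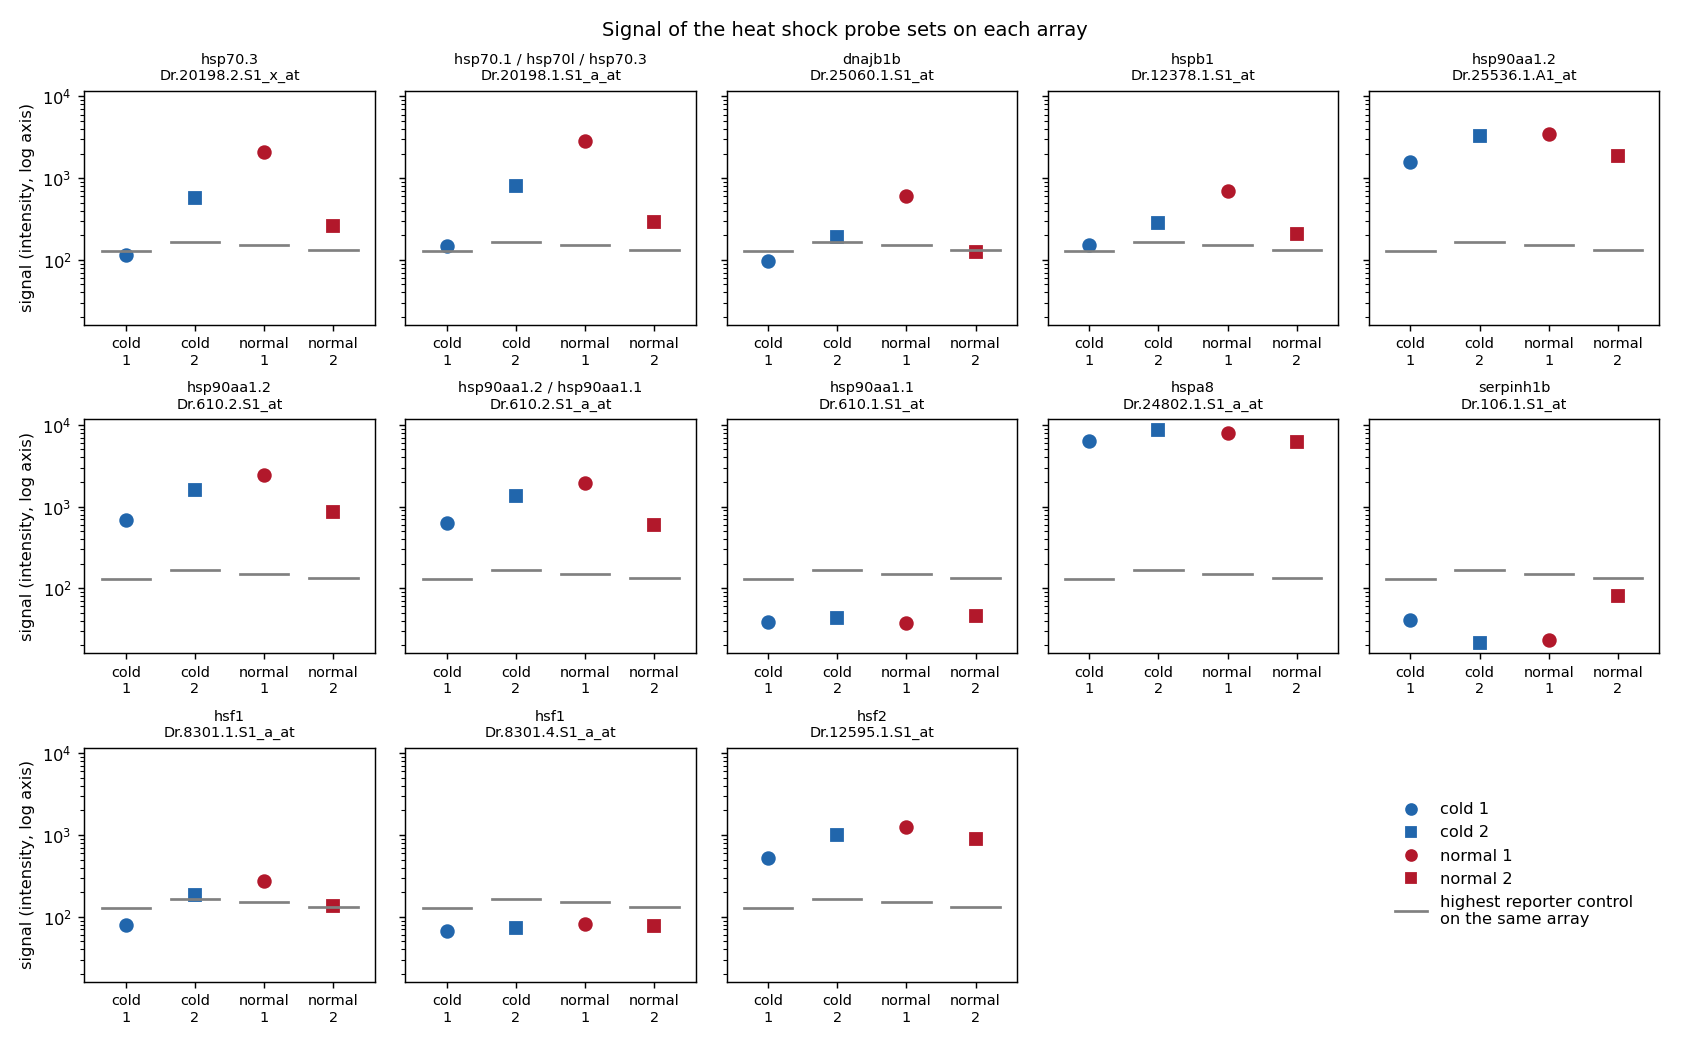
Signal of each of the 13 heat shock probe sets on cold 1, cold 2 (blue), normal 1 and normal 2 (red), on a log axis of linear intensity, where circles are set 1, squares are set 2 and each grey bar is the highest reporter control of that array. Of the 10 probe sets that passed the filter on low signal, 8 were highest on normal 1 and lowest on cold 1, while hsp90aa1.1, serpinh1b and 1 probe set of hsf1 lay below the grey bar on every array.

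The HSP90 genes hsp90aa1.1 and hsp90aa1.2 lie directly next to each other in the current gene table of assembly GRCz12tu. Both encode cytosolic HSP90 of the alpha type, the stress-inducible class in vertebrates, and hsp90aa1.1 is also known in zebrafish for the folding of myosin in skeletal muscle. The first probe set of hsp90aa1.2 read 1555 on cold 1 and 3301 on cold 2, against 3464 on normal 1 and 1869 on normal 2. Its second probe set read 689 on cold 1 and 1576 on cold 2, against 2417 on normal 1 and 870.2 on normal 2. Both had normal 1 at the top, cold 2 next, and cold 1 at the bottom, with log2 ratios of -1.16 and -1.81 in set 1 and of 0.82 and 0.86 in set 2.

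The probe set shared by both genes had signals of 626.5 on cold 1 and 1336 on cold 2, against 1958 on normal 1 and 589 on normal 2. Here normal 2 was the lowest array, and the gene pair was 3.13-fold lower in set 1 and 2.27-fold higher in set 2. The only probe set that reads hsp90aa1.1 by itself gave 38.9 on cold 1 and 42.8 on cold 2, against 37.6 on normal 1 and 45.6 on normal 2. It was below the filter and below the reporter controls on all 4 arrays, so no level of hsp90aa1.1 in these brains can be read from it, also on cold 1, where the muscle markers were highest.

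hspa8, the constitutive cytosolic HSP70 of most cells, varied least among the members that passed the filter. Its signal was 6274 on cold 1 and 8650.2 on cold 2, against 7983 on normal 1 and 6207 on normal 2. The highest array, cold 2, exceeded the lowest, normal 2, by 1.39-fold, where hsp70.3 spanned 18.3-fold between its highest and lowest arrays. The mean signal of hspa8 lay at the 99.8 percentile of all probe sets, and that of hsp70.3 at the 83.7 percentile. The part of signal level in the narrow range of hspa8 was not tested. hspa8 was 1.27-fold lower in cold in set 1 and 1.39-fold higher in set 2. It was the single probe set among the 10 that did not reach 2-fold in set 1.

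serpinh1b encodes a chaperone of the endoplasmic reticulum that is dedicated to collagen. It had signals of 40.5 on cold 1 and 21.6 on cold 2, against 23.1 on normal 1 and 80.05 on normal 2, all below the reporter controls and below the filter. The readings followed neither the condition nor the order of the HSP70 probe sets, and at this level a log2 ratio of 0.81 in set 1 or -1.89 in set 2 cannot be told from background.

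The regulators were read by 3 probe sets. hsf1, the main activator of the heat shock response, had signals of 78.9 on cold 1 and 186 on cold 2, against 271 on normal 1 and 135 on normal 2 on its first probe set. On this probe set hsf1 was 3.44-fold lower in set 1 and 1.38-fold higher in set 2, but cold 1 lay below the reporter controls, and with these as a floor the set 1 ratio was 2.10-fold. Its second probe set gave 67.55 on cold 1 and 72.15 on cold 2, against 81.4 on normal 1 and 76.2 on normal 2. It was a little lower in cold in both sets, by log2 -0.27 and -0.08. The 2 readings of hsf1 thus disagree in size, and in set 2 also in direction. The second lay just under the filter, at the 39.8 percentile of all mean signals, and below the reporter controls on every array.

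hsf2, a related factor with roles in development that can join trimers with hsf1, was read above the reporter controls throughout. It had signals of 519 on cold 1 and 1011 on cold 2, against 1243 on normal 1 and 894 on normal 2. The cold 1 array stood below the other 3. The ratio was 2.40-fold lower in set 1 and 1.13-fold higher in set 2.

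Between the groups as labelled, no member passed the test. With limma and Benjamini-Hochberg adjustment over 9301 probe sets, 0 of the 10 kept member probe sets were called higher and 0 lower at an adjusted p of 0.05, and over all probe sets 0.00% were called higher and 0.00% lower. At an unadjusted p under 0.05 the members again gave 0 higher and 0 lower, against 18 (0.194%) and 28 (0.301%) of all probe sets, and a SAM-type statistic called 0 members. Both shares are far below what a threshold of 0.05 passes by chance, so limma called little anywhere on these arrays. The 0 called members therefore do not show an absence of change. Fits that leave out 1 array have 1 array in a group, so only their differences are given. The log2 difference of cold minus normal was -1.54 with a standard error of 1.11 for hsp70.3, from mean log2 signals of 7.99 in cold and 9.52 in normal brains (n = 2 arrays each). It rested on normal 1 and cold 1, since it was -0.05 without normal 1 and -0.37 without cold 1. That of the shared HSP70 probe set was -1.41 ± 1.19 over all 4 arrays, 0.23 without normal 1 and -0.19 without cold 1. The difference was -1.02 ± 0.76 for dnajb1b and -0.88 ± 0.65 for hspb1 (limma's standard errors), and without normal 1 these were 0.13 and -0.01. The hsp90aa1.2 probe sets gave -0.17 ± 0.47 and -0.48 ± 0.62 and the shared HSP90 probe set -0.23 ± 0.67, all above 0 without cold 1 or without normal 1. That of hspa8 was 0.07 ± 0.22, and below 0 without cold 2 or without normal 2. For hsf1 it was -0.66 ± 0.53, and for hsf2 it was -0.54 ± 0.47. The adjusted p from limma was 1.0 for each of the 10, and none of them had cold and normal groups that did not overlap, against 15.7% of all probe sets. The overlap of the members follows from their opposite directions in the sets, so it is no further result.

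**Figure D2:**
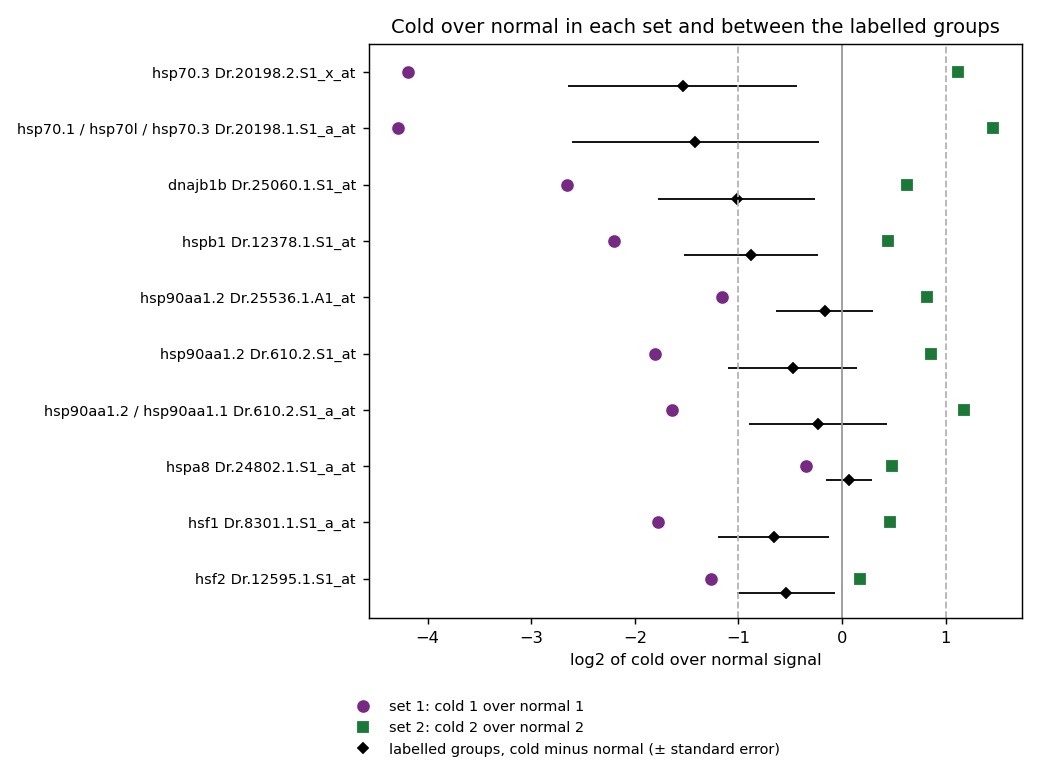
Log2 of cold over normal signal for the 10 kept heat shock probe sets in set 1 (purple circles), in set 2 (green squares) and between the labelled groups (black diamonds with limma's standard error, n = 2 arrays each). Dashed lines mark 2-fold, every circle lies left of 0 and every square right of 0, and the diamonds of hsp70.3 and hspa8 stand at -1.54 and 0.07.

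Within the sets the members lay on opposite sides. In set 1, 9 of the 10 kept probe sets were at least 2-fold lower in cold, while 5.13% of all kept probe sets were, and 0 were at least 2-fold higher, where 8.79% of all were. In set 2, 3 of the 10 were at least 2-fold higher, while 2.23% of all were, and 0 were at least 2-fold lower, where 4.0% of all were. These 3 were hsp70.3, the shared HSP70 probe set and the shared HSP90 probe set. The median log2 ratio of the members was -1.80 in set 1, against 0.06 over all kept probe sets, and 0.72 in set 2, against 0.003 over all. Since the genes were selected with these ratios known, and probe sets of the same genes share transcripts, the counts describe the chosen genes and do not set them apart from others. That a probe set was lower in cold in set 1 and higher in set 2 was frequent on these arrays, with all 10 members and 32.8% of all kept probe sets.

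**Figure D3:**
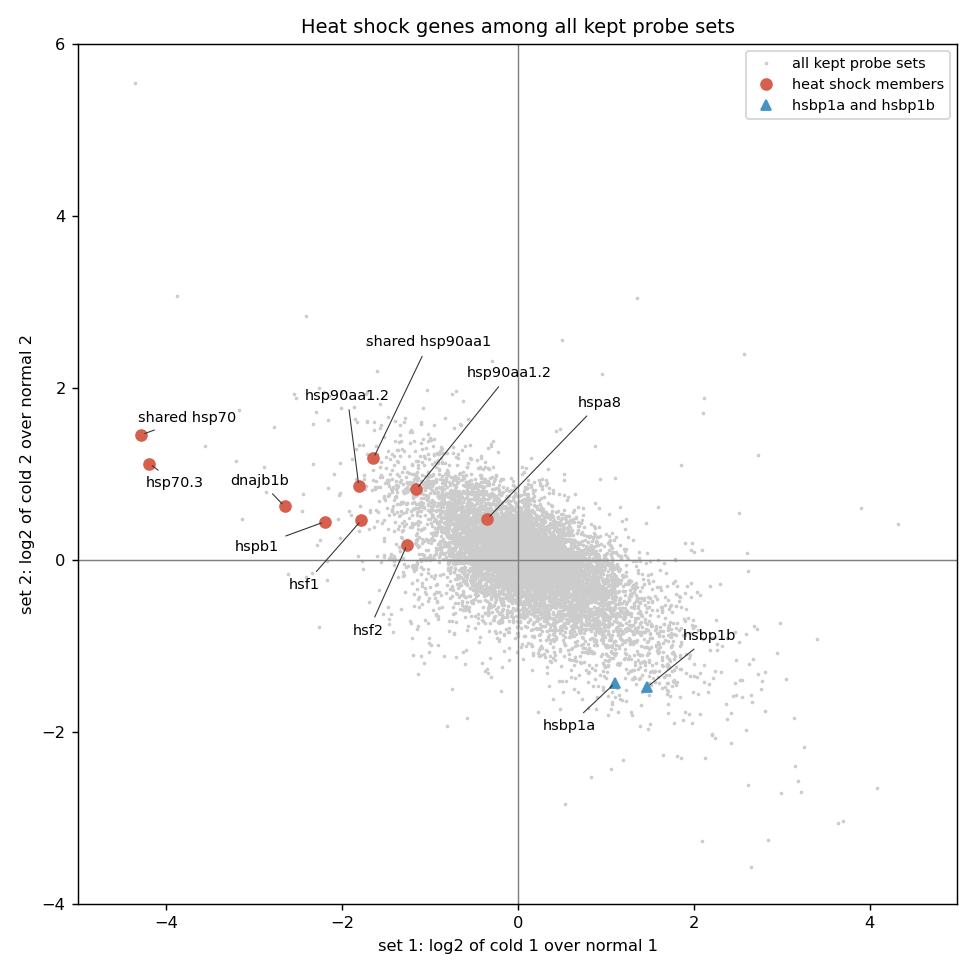
Each kept probe set is a grey point at its log2 ratio of cold over normal in set 1 (horizontal) and set 2 (vertical), with the 10 heat shock member probe sets in red and the heat shock factor binding protein genes hsbp1a and hsbp1b in blue. The members lie in the upper left, with both HSP70 probe sets beyond -4 in set 1, and hsbp1a and hsbp1b lie in the lower right.

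The same readings can be set out by array. Normal 1 was the highest and cold 1 the lowest for 8 of the 10 kept member probe sets, and for 7.77% of all kept probe sets. The exceptions were the shared HSP90 probe set and hspa8. The trait is not limited to the members, since 4 of the 10 kept other HSP70 genes showed it too. It was seen in 1 of 8 J-domain genes, 1 of 24 HSP70 and HSP90 cochaperones and 1 of 5 other hsf1 targets. None of the kept genes of the other chaperone lists had it. Against the other array of its own condition, cold 2 was at least 2-fold above cold 1 in 6 of the 10 members (4.16% of all), and normal 1 was at least 2-fold above normal 2 in 7 of the 10 (6.36% of all). For hsp70.3 this came to 5.03-fold between the cold arrays and 7.89-fold between the normal arrays. The means of the conditions differed by log2 -1.54, but a ratio of single arrays and a difference of means are unlike measures. Over all kept probe sets the median log2 ratio without its sign was 0.37 between the cold arrays and 0.41 between the normal arrays. Cold over normal it was 0.40 in set 1, 0.29 in set 2, 0.25 for cold 1 over normal 2 and 0.33 for cold 2 over normal 1. Between arrays that carry different numbers, the members had a median log2 ratio of -0.42 for cold 1 over normal 2 and of -0.58 for cold 2 over normal 1. Over all kept probe sets these medians were 0.01 and 0.08. Cold 1 was at least 2-fold below normal 2 in 1 of the 10 members (1.19% of all), which was hsp70.3, and cold 2 was at least 2-fold below normal 1 in 4 of the 10 (3.87% of all), which were both HSP70 probe sets, dnajb1b and hspb1. These ratios share the same 4 arrays, so they are not independent of each other.

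Chaperones and regulators outside the 10 genes were followed in 7 lists, with each gene at its kept probe set of highest mean signal. Of 53 such genes, 7 were higher in cold and 5 lower by 2-fold or more in set 1, where 8.61% and 5.0% of all 5982 genes were. In set 2, 1 was higher and 4 were lower by as much, where 2.49% and 3.93% of all genes were. No floor at the reporter controls was applied to these counts. Between the labelled groups, limma with Benjamini-Hochberg adjustment called 0 of the 53, and 0 had an unadjusted p under 0.05. The SAM-type statistic also called 0. These lists had medians on both sides of 0, as the plot of chaperone lists by set shows, and the median of all genes was 0.06 in set 1 and 0.01 in set 2. Of the 18 genes of these lists named for their signal, 14 lay on opposite sides in the sets, as did 71.2% of all genes.

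**Figure D4:**
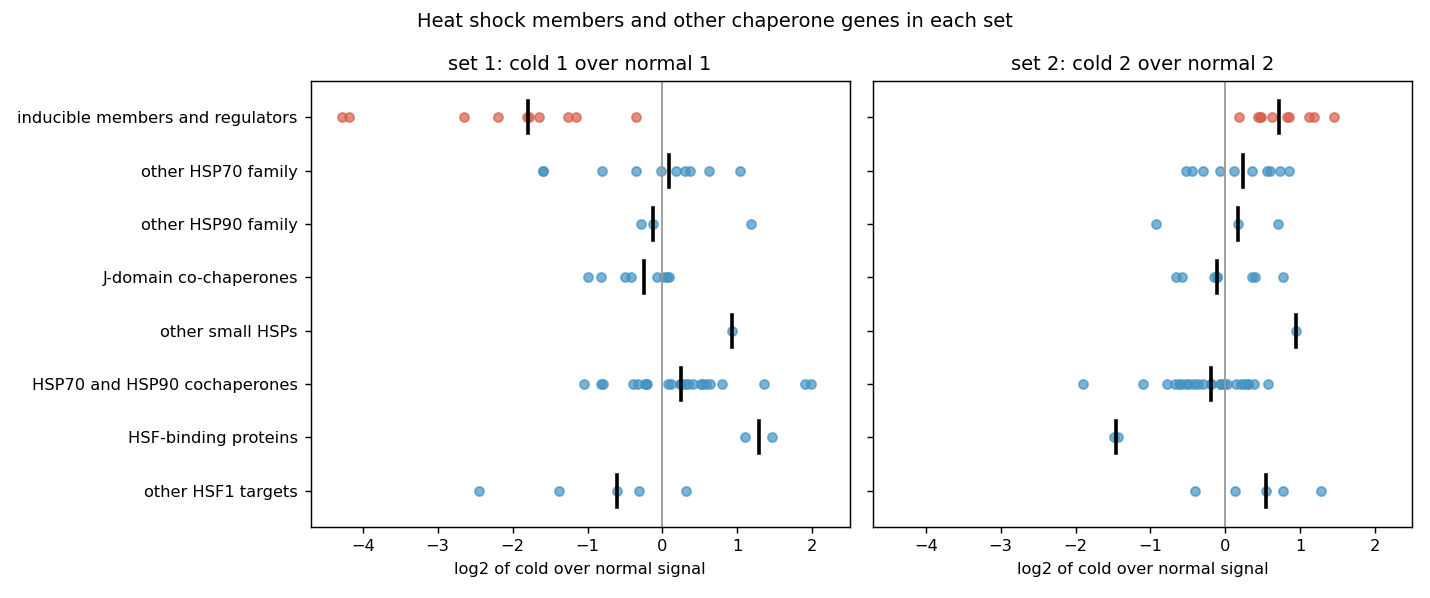
Log2 of cold over normal signal in set 1 (left) and set 2 (right) for the 10 heat shock member probe sets (red) and for the genes of 7 lists of other chaperones and regulators (blue), with the median of each row as a black bar. The members have a median of -1.80 in set 1 and 0.72 in set 2, while other HSP70 genes have 0.09 and 0.23 and the heat shock factor binding proteins have 1.29 and -1.46.

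The other HSP70 genes, of which 10 of 11 on the array were kept, had 1 gene at least 2-fold higher and 2 lower in set 1, and none past 2-fold in set 2. hspa5, the HSP70 of the endoplasmic reticulum, had signals of 937 on cold 1 and 1507 on cold 2, against 1636 on normal 1 and 995 on normal 2. hspa9, the mitochondrial HSP70, read 1128 on cold 1 and 1142 on cold 2, against 1437 on normal 1 and 1199.5 on normal 2. hspa5 thus took the same directions as the inducible genes at a smaller size, while hspa9 was a little lower in cold in both sets. hspa4l, a nucleotide exchange factor of the HSP70 family, had log2 ratios of 0.19 in set 1 and 0.11 in set 2. The gene higher in set 1 was hspa12a (log2 1.03), and the 2 genes lower were hspa4a (log2 -1.60) and hspa8b (log2 -1.59), all named after their values were seen. hspa4a and hspa8b were higher in cold in set 2 (log2 0.85 and 0.56).

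All 3 other HSP90 genes were kept. hsp90ab1 encodes the constitutive cytosolic HSP90. It had signals of 5580 on cold 1 and 7001 on cold 2, against 6772 on normal 1 and 6234 on normal 2. As for hspa8, this was a narrow range at a high signal. hsp90b1, the HSP90 of the endoplasmic reticulum, had log2 ratios of -0.13 in set 1 and 0.71 in set 2. trap1, the mitochondrial HSP90, lay on the other side in each set, with signals of 467 on cold 1 and 374 on cold 2, against 206 on normal 1 and 711 on normal 2. Its log2 ratios were 1.18 in set 1 and -0.93 in set 2.

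Among the J-domain proteins, 8 of 10 genes were kept and none of them passed 2-fold in either set, with medians of -0.24 in set 1 and -0.11 in set 2. dnaja2b had signals of 1039 on cold 1 and 2221 on cold 2, against 2075 on normal 1 and 1300.5 on normal 2, which is the order of the inducible genes but for the top array. Its duplicate dnaja2a had log2 ratios of -0.07 and -0.12 in set 1 and set 2, and dnajb6a, a suppressor of protein aggregation, had -0.82 and 0.40. Of the other small heat shock proteins only hspb6 was kept, 1 of 4 on the array. It read 110.1 on cold 1 and 208 on cold 2, against 57.6 on normal 1 and 108 on normal 2, higher in cold in both sets, by log2 0.93 and 0.94. The lower cold array lay only just above the higher normal array, and 3 of these readings were under the reporter controls.

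The helpers of HSP70 and HSP90 were the longest list, with 24 of 26 genes kept, and had 3 genes at least 2-fold higher and 1 lower in set 1, and 0 higher and 2 lower in set 2. The most strongly read among them were close to even: ptges3a, an HSP90 cochaperone, had log2 ratios of 0.25 and -0.19 in set 1 and set 2, stub1, the ubiquitin ligase that tags chaperone clients, had -0.20 and 0.30, and the immunophilin fkbp4 had 0.59 and -0.02. The genes lower in set 2 were cdc37l1 (log2 -1.90) and hikeshi (log2 -1.09), the import carrier of HSP70 into the nucleus under heat stress, which were named after their values were seen. Both were higher in set 1, with log2 ratios of 1.98 and 1.91, as was pih1d1 (log2 1.36), while the gene lower in set 1 was ptges3b (log2 -1.05), both again named after their values were seen.

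The heat shock factor binding protein genes lay opposite to the members in each set. Both kept genes of their list, 2 of 5 on the array, encode a small coiled-coil protein that binds heat shock factors and in mammals dampens their activity. hsbp1b had signals of 2073 on cold 1 and 539 on cold 2, against 748 on normal 1 and 1504 on normal 2. hsbp1a had signals of 1138 on cold 1 and 366 on cold 2, against 528 on normal 1 and 987 on normal 2. Both were highest on cold 1 and lowest on cold 2, and their log2 ratios were 1.47 and 1.11 in set 1 and -1.48 and -1.43 in set 2. Opposite directions in the sets were frequent, with 71.2% of all genes. The red blood cell markers went the same way as the hsbp1 genes, with median log2 ratios of 1.24 in set 1 and -1.33 in set 2. So did, at a smaller size, the medians of neuron (0.44 and -0.28), radial glia and astroglia (0.45 and -0.225) and oligodendrocyte markers (0.26 and -0.08). Medians of muscle, fibroblast and epidermis markers were above 0 in both sets, and those of microglia and leukocyte markers went the other way. The part of any cell type in the hsbp1 values was not tested.

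Other targets of hsf1 had medians on the side of the members, -0.61 in set 1 and 0.55 in set 2, with 5 of 7 genes kept. hspd1, the mitochondrial chaperonin, had signals of 797 on cold 1 and 2267 on cold 2, against 2068 on normal 1 and 937 on normal 2. Its partner hspe1 read 1748 on cold 1 and 1410.4 on cold 2, against 2165 on normal 1 and 1287 on normal 2. hspd1 was at least 2-fold lower in set 1 and at least 2-fold higher in set 2 (log2 -1.38 and 1.28), whereas hspe1 stayed at -0.31 and 0.13. The ubiquitin gene ubb had log2 ratios of -0.61 and 0.55. sqstm1, an autophagy receptor picked out by its values after they were seen, read 233 on cold 1 and 563 on cold 2, against 1268 on normal 1 and 331 on normal 2, the same order of arrays as hsp70.3. The remaining kept gene, gadd45ab, also named after its values were seen, went the other way in both sets. Its log2 ratios were 0.31 in set 1 and -0.41 in set 2, with every signal under the reporter controls.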

How the data were processed

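The authors hybridized labelled RNA of pooled brains to Affymetrix arrays and deposited a linear intensity for each probe set, with MAS5 named in the submitters' processing notes. Its version, scaling target and detection calls are not stated in the sources used here. Global scaling hides a change common to most transcripts. No array was centred, since trimmed means (2% at each end) differed by a ratio of 1.05, under 1.2. The deposited values were put on a log2 scale without the control probe sets, and those probe sets whose mean log2 reached the 40th percentile were kept (9301 of 15502). Groups of 2 arrays were compared without pairing by limma 3.58.1 (R 4.3.3; lmFit and eBayes, trend on). P-values were adjusted by Benjamini-Hochberg at a threshold of 0.05, and the code was tested on simulated data. The study describes separate acclimation experiments, but not which experiment each array came from, so p-values reflect only how these arrays vary. An exact two-sided permutation test on 2 against 2 arrays cannot go below p = 0.333.

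Symbols came from the platform annotation: 10795 probe sets had 1 symbol (10711 matched a current gene), 135 several and 4572 none. Members, lists, markers and alternatives were chosen with earlier results of these data known. The genes named were all member probe sets and up to 3 genes of highest mean signal per chaperone list. The brightest gene per marker list was also planned, but only that of the neurons, snap25a, is named. Others are said to be named after their values were seen. Only names and gene order were taken from GRCz12tu. A planned description of protein and promoter sequences was not run, and no sequence is printed. Alternatives were median centring, quantile normalization, a pseudocount of 16, the filter at the 60th percentile or left out, limma with no variance trend, the number as a replicate block, leaving out each array, a SAM-type statistic at a false discovery rate of 5% and the mean over all probe sets of a gene. A crossed block and a floor at the reporter controls were added after seeing the data.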

Additional observations from a re-analysis of the deposited data

Results flagged for a closer look

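Results are listed here because the ratio of cold to normal signal went in opposite directions in set 1 and set 2. With 1 array per condition in a set, the difference between the sets was not tested, and values are set 2 minus set 1 on the log2 scale. All 10 kept member probe sets met this, as did 69.6% of all kept probe sets. The difference was 5.31 for hsp70.3, 5.74 for the probe set shared by hsp70.1, hsp70l and hsp70.3, 3.28 for dnajb1b and 2.64 for hspb1. It was 1.98 and 2.67 for the probe sets of hsp90aa1.2, 2.83 for the probe set shared with hsp90aa1.1 and 0.83 for hspa8. For the regulators it was 2.24 for hsf1 and 1.44 for hsf2.

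Of the 18 named genes of the other chaperone lists, 14 also lay on opposite sides, as did 71.2% of all 5982 genes, so the count is close to that of the array as a whole. Of the HSP70 and HSP90 families, hspa5 differed by 1.40, hsp90ab1 by 0.45, hsp90b1 by 0.84 and trap1 by -2.11. Of the J-domain proteins, dnaja2b differed by 1.77 and dnajb6a by 1.21, and of the cochaperones, ptges3a differed by -0.44, stub1 by 0.50 and fkbp4 by -0.61. The heat shock factor binding protein genes hsbp1b and hsbp1a differed by -2.95 and -2.54. Of the other hsf1 targets, ubb differed by 1.16, hspe1 by 0.44 and hspd1 by 2.65.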

How the results depend on the processing

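No alternative called a member probe set between the labelled groups, and limma called 0 probe sets under all of them but 1. Unadjusted p-values from limma under 0.05 numbered 18 higher and 28 lower of 9301 as reported. They numbered 66 and 88 of 15502 without a filter, and 7 and 11 of 6201 with the filter at the 60th percentile. Under the crossed block they numbered 55 and 67 of 9301, with 3 of the 10 members among those lower. The members were chosen with these values known, so that count is no support. Leaving out an array leaves 1 array in a group, so only differences are given for those fits. Adding the array number as a replicate block gave 0 calls and left each difference as it was, hsp70.3 at -1.54. The labels do not say that the number pairs the arrays, and deviations of same-numbered arrays correlated at -0.295 over 9301 probe sets. With the pairing crossed as a replicate block, 1 probe set was called higher and 0 lower, none a member. How many of all kept probe sets change sign without 1 array is not given here, so the next count does not set the members apart. Opposite directions in the sets were seen in 69.6% of all kept probe sets. Without 1 array, the difference of cold minus normal changed sign for 6 of the 10 member probe sets. It ran from -2.16 to 0.13 for dnajb1b, from -3.06 to 0.23 for the shared HSP70 probe set, from -0.71 to 0.38 and from -1.21 to 0.26 for the hsp90aa1.2 probe sets, from -1.10 to 0.63 for the shared HSP90 probe set and from -0.17 to 0.30 for hspa8. It kept its sign for hsp70.3 (-3.03 to -0.05), hspb1 (-1.75 to -0.01), hsf1 (-1.28 to -0.04) and hsf2 (-1.02 to -0.06). Without a filter, 1 member was at least 2-fold lower in set 2, serpinh1b, whose signals were under the reporter controls. With the reporter controls as a floor, hsf1 in set 1 was -1.07, and all probe sets at least 2-fold higher in set 1 numbered 495 in place of 818, and at least 2-fold lower in set 2 191 in place of 372. The number of arrays, 2 per group, limits the precision.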

Other observations

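The marker lists that the report does not give in full had the following summed signals. Neuron markers summed to 28104 on cold 1 and 22089 on cold 2, against 20703 on normal 1 and 25785 on normal 2 (8 of 8 kept), with snap25a, a protein of synaptic vesicle release, at 5417 and 4799 on the cold arrays, against 3871 and 5880 on the normal arrays. Markers of radial glia and astroglia summed to 21728 and 19148 on the cold arrays, against 15069 and 21552 on the normal arrays (8 of 8 kept), and those of oligodendrocytes to 13370 and 9999 on the cold arrays, against 10683 and 12135 on the normal arrays (5 of 5 kept). Markers of microglia and leukocytes summed to 7461 and 7384 on the cold arrays, against 6606 and 8351 on the normal arrays (7 of 9 kept). Fibroblast markers summed to 1052 and 868 on the cold arrays, against 544 and 903 on the normal arrays (3 of 4 kept), and epidermis markers to 1918 and 2567 on the cold arrays, against 1327 and 1696 on the normal arrays (5 of 7 kept). The first number of each pair is array 1. But for the oligodendrocyte markers, whose sum was lowest on cold 2, these sums were lowest on normal 1, where 8 of the 10 kept heat shock probe sets were highest. A sum follows its brightest genes, and single markers differed. gfap, a radial glia and astroglia marker named after its values were seen, read 376 on cold 1 and 666 on cold 2, against 1069 on normal 1 and 357 on normal 2. Every other kept marker of that list was higher in cold in set 1, where gfap was lower. The microglia and leukocyte list had median log2 ratios of -0.24 in set 1 and 0.31 in set 2, the directions of the members. The other lists given here were higher in cold in set 1 by their medians. The part of these cell types in the heat shock values was not tested.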
